A study of Mus musculus with 18 samples.

Results

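The question addressed here was where the RNA response to testosterone differed between the lacrimal gland and the meibomian gland, both of which feed the tear film. The 12 arrays of these glands, of 18 arrays in all, were taken by tissue label. For every probe the testosterone minus placebo change in the lacrimal gland was set against the same change in the meibomian gland, as the lacrimal change minus the meibomian change on the log2 scale. This quantity is called the difference below. All 4 groups came from castrated (orchiectomised) male BALB/c mice that carried a hormone pellet for 21 days. The groups were lacrimal glands with a testosterone pellet, lacrimal glands with a placebo pellet, meibomian glands with a testosterone pellet and meibomian glands with a placebo pellet. Each group had 3 pools, named A, B and C, and per the labels a pool joined the 10 glands of 5 animals, although the same labels also state 4 animals per sex and experiment. Whether lacrimal and meibomian pools shared mice is not given there. Every animal was castrated, so the placebo groups had no testicular androgen and no uncastrated group was compared. The series also holds 6 submandibular arrays, which enter only 1 alternative fit.

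The lacrimal gland is a serous exocrine gland whose acini secrete the watery, protein-rich part of tears. The meibomian gland is a sebaceous gland of the eyelid, whose cells fill with lipid, burst and are replaced from dividing basal cells. Both contain the androgen receptor, a hormone-activated transcription factor, and androgens are known to sustain the size and secretion of the lacrimal gland and lipid production in the meibomian gland.

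Summed over each list, acinar and sebaceous marker genes matched the tissue labels. The summed intensity of 9 lacrimal acinar probes was 691 to 896 in lacrimal testosterone pools and 1236 to 1271 in lacrimal placebo pools, against 41.4 to 54.9 in meibomian testosterone pools and 52.0 to 56.1 in meibomian placebo pools. The sum of 10 sebaceous probes ran the other way, at 22.9 to 36.2 and 17.7 to 18.7 in lacrimal testosterone and placebo pools and at 548 to 720 and 473 to 486 in the meibomian ones. Not every marker followed its sum. The acinar markers Lyz1 and Lyz2 averaged 12.5 and 18.9 in meibomian testosterone pools, against 7.13 and 8.68 in lacrimal testosterone pools. The sebaceous marker Mc5r averaged 3.49 in lacrimal testosterone pools, against 0.555 in meibomian testosterone pools. Placebo pools had the same order. Most of the lacrimal acinar sum came from Lpo and Car6, with lacrimal placebo means of 493 and 547. The meibomian samples also held eyelid tissue. Their 10 skeletal muscle probes summed to 199 to 244 with testosterone and 206 to 257 with placebo, against 3.33 to 4.88 and 4.20 to 5.28 in the lacrimal gland, where 8 of the 10 were dim on all 6 arrays. In such whole-tissue RNA, fewer cells of a type and less RNA per cell cannot be told apart. The spread also differed: the median SD within groups was 0.217 in the lacrimal gland and 0.135 in the meibomian gland on the log2 scale, and meibomian arrays ended at a maximum of 148 to 219 with testosterone and 135 to 143 with placebo, against 597 to 931 and 977 to 1042 on the lacrimal arrays.

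Testosterone acted differently on many genes of the glands, and most of the differing genes passed the test in the lacrimal gland but not in the meibomian gland. Of 7164 probes tested, 1617 had a difference that passed an adjusted p of 0.05 in limma (22.6%). The difference was positive for 629 (8.78%) and negative for 988 (13.8%), and it reached 1 on the log2 scale, a 2-fold difference of the changes, for 764. In the same fit 2417 probes (33.7%) passed within the lacrimal gland, 1123 higher (15.7%) and 1294 lower (18.1%) with testosterone. Within the meibomian gland 66 passed (0.921%), 54 higher (0.754%) and 12 lower (0.168%). The meibomian count rested on single arrays and on the model of the spread. It was 1 without testosterone pool B, 357 without testosterone pool C and 2924 with array weights. The reported fit takes 1 spread per probe over both glands. With each gland fitted alone 1763 probes passed in the lacrimal and 240 in the meibomian gland. With 1 weight per gland these counts were 1749 and 705. With quantile normalization 18 meibomian probes were higher and 9 lower over the 12 arrays together, and 38 higher and 22 lower within each gland. The count of differences moved less, from 1206 to 1948 when single arrays were left out.

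Sorted by these calls, 1387 of the 1617 probes were called in the lacrimal gland only, 27 in the meibomian gland only, 6 in both glands the same way, 10 in both glands in opposite ways and 187 in neither. These counts moved with the meibomian calls. When single arrays were left out, the lacrimal-only count was 1109 to 1626, the meibomian-only count 0 to 139, the same-way count 0 to 18 and the opposite-way count 0 to 75, each of the last 3 being 0 without meibomian testosterone pool B and highest without testosterone pool C. With array weights 1043 of 2464 differing probes were lacrimal only, 627 meibomian only, 189 the same way and 489 in opposite ways. A probe without a meibomian call is not shown to be unchanged there. The lacrimal change was the larger one for 1435 of the 1617 (88.7%), against 67.4% of all tested probes. Over the 629 positive differences the median change was 1.18 in the lacrimal gland and 0.00 in the meibomian gland. Over the 988 negative ones it was -0.69 in the lacrimal gland and 0.24 in the meibomian gland. Of the 1617 probes 200 were dim on all 6 meibomian arrays (12.4%), against 660 of all tested probes (9.21%), and among the 6089 probes dim in neither gland 1384 were called (22.7%).

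**Figure D1:**
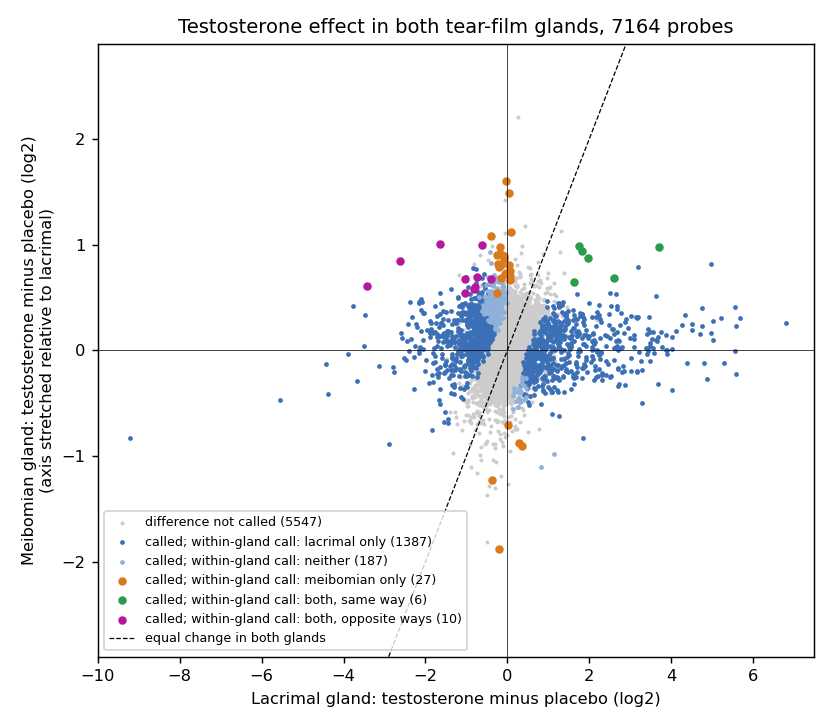
Testosterone minus placebo change of each of 7164 probes (log2) in the lacrimal gland (horizontal axis) and the meibomian gland (vertical axis, stretched); colours give the within-gland calls of probes whose difference was called, and the dashed line marks equal change. Most coloured points lie along the lacrimal axis and near 0 on the meibomian axis, and the 10 probes called in opposite ways all lie left of 0 on the lacrimal axis and above 0 on the meibomian axis.

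Genes chosen for a large lacrimal change mostly had small meibomian changes, as did tested probes as a whole (median absolute meibomian change 0.18). Of 155 probes that rose by at least 2 on the log2 scale in the lacrimal gland, the median lacrimal change was 2.80 and the median meibomian change was 0.09, with a meibomian range of -0.50 to 0.98. Only 2 of them were called in the meibomian gland and 8 changed there by at least 0.5 in either direction. Of 45 probes that fell by at least 2 in the lacrimal gland, the median lacrimal change was -2.38, the median meibomian change was 0.09, and 2 were called in the meibomian gland. Some could show little there, since 46 of the 155 and 9 of the 45 were dim on all meibomian arrays. Over the other 109 and 36 the median meibomian change was 0.03 and 0.11. The meibomian changes had the sign of the lacrimal ones for 103 of the 155 and 17 of the 45. Across all tested probes the changes in the glands had a Pearson correlation of 0.08 and a Spearman correlation of 0.09, as a description over probes, which share arrays and are not independent, and 53.2% had the same sign.

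The 12 genes with the largest positive differences all rose in the lacrimal gland and none passed in the meibomian gland. The radial spoke gene of cilia and sperm tails, Rsph6a, measured 308, 259 and 226 in lacrimal testosterone pools A, B and C, against 1.83, 2.33 and 2.42 in lacrimal placebo pools. Meibomian pools measured 0.895, 0.613 and 0.649 with testosterone, against 0.468, 0.489 and 0.780 with placebo. The lacrimal groups were far apart and the meibomian groups overlapped, and the difference was 6.54 ± 0.26 (SE, n = 3 pools per group; adjusted p = 1.48e-09 in limma). Cyp4a12a, a cytochrome P450 that androgens induce in mouse kidney, was another case. It measured 211, 232 and 208 in lacrimal testosterone pools and 2.53, 6.13 and 5.21 in lacrimal placebo pools. With 32.1, 18.5 and 37.0 in meibomian testosterone pools and 31.9, 38.5 and 28.4 in meibomian placebo pools, it was well expressed in the meibomian gland without a clear change there, and the difference was 5.81 ± 0.41 (adjusted p = 1.76e-07). Among the 12 largest, Ddc, which makes dopamine and serotonin, the hedgehog receptor Ptch1, the taste-cell channel Trpm5 and the antigen-family gene Ly6f were dim on all meibomian arrays, so a fall there could not have been seen. The others of the 12 were the mitochondrial import protein Mtx1, the chromatin remodeller Arid1a, the cornified envelope gene Lce1l, the odorant receptor Olfr140, the G protein regulator Rgs10 and the meiotic cohesin Stag3, with differences of 4.75 to 5.41. Each of these rests on 1 probe.

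The genes with the largest negative differences all fell in the lacrimal gland. Pnliprp1, a pancreatic lipase-related protein, measured 0.362, 2.40 and 0.327 in lacrimal testosterone pools, against 567, 516 and 490 in lacrimal placebo pools. Meibomian pools measured 0.314, 0.174 and 0.139 with testosterone, against 0.285, 1.88 and 0.144 with placebo. The lacrimal groups did not overlap, the meibomian groups did, and the difference was -8.38 ± 0.89 (adjusted p = 1.04e-05). Adh1, an alcohol and retinol dehydrogenase, measured 13.0, 9.29 and 9.70 in lacrimal testosterone pools and 116, 163 and 165 in lacrimal placebo pools. Its meibomian values were 96.2, 69.0 and 67.5 with testosterone, against 56.9, 53.8 and 61.3 with placebo, so that the pools did not overlap in either gland and lay in opposite order. The difference was -4.19 ± 0.25 (adjusted p = 4.19e-08), while the meibomian change of 0.42 did not pass (adjusted p = 0.25). Phyh, the peroxisomal enzyme that starts the breakdown of phytanic acid, had the same arrangement, with means of 38.4 ± 7.06 and 424 ± 4.02 in lacrimal testosterone and placebo pools and of 30.2 ± 2.75 and 24.0 ± 2.12 in meibomian ones (SD, n = 3), and a difference of -3.81. The liver-type lectin receptor Asgr1, the neuronal adhesion protein Tenm3, the membrane protein Pllp, the aminoacylase Acy1, the endocytic adaptor Snap91, the galactosyltransferase B4galt1 and the polyamine enzyme Sat1 had differences of -5.09 to -2.83.

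A set of 10 genes was called in opposite ways, and all 10 fell with testosterone in the lacrimal gland and rose in the meibomian gland. In this fit 0 probes were called higher in the lacrimal and lower in the meibomian gland. Other settings called some that way, with 105 of 489 opposite-way probes under array weights, 10 of 75 with 1 weight per gland, 5 of 75 without meibomian testosterone pool C, 3 of 11 and 1 of 5 with quantile normalization within each gland and over the 12 arrays, and at most 2 under the others. The 10 were chosen by calls on these same pools, and their pools did not overlap between treatments in either gland, which is therefore no separate evidence. Their differences were called under each alternative that tested them. The meibomian rise was less firm: none of the 10 was called there when any 1 of the 3 meibomian placebo pools or testosterone pools A or B was left out, and 4 of 10 were called with quantile normalization over the 12 arrays.

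Zik1, a zinc finger protein, had the largest of these differences. It measured 5.47, 5.97 and 4.92 in lacrimal testosterone pools, against 52.5, 65.3 and 62.9 in lacrimal placebo pools. Meibomian pools measured 2.63, 2.64 and 2.13 with testosterone, against 1.46, 1.60 and 1.59 with placebo. The lacrimal change was -3.42 and the meibomian change 0.61, a difference of -4.03 ± 0.18 (adjusted p = 2.53e-09). H4c9, a histone H4 gene, measured 16.9, 21.6 and 21.9 in lacrimal testosterone pools and 119, 117 and 136 in lacrimal placebo pools. It measured 41.0, 34.5 and 33.8 in meibomian testosterone pools and 19.3, 20.3 and 20.8 in meibomian placebo pools. Its level was therefore higher in the meibomian gland with testosterone and higher in the lacrimal gland with placebo, and the difference was -3.46 ± 0.18 (adjusted p = 9.10e-09). Hp encodes haptoglobin, the plasma protein that binds free haemoglobin. It measured 93.7, 113 and 122 in lacrimal testosterone pools and 358, 296 and 364 in lacrimal placebo pools, with 4.28, 3.15 and 2.55 in meibomian testosterone pools and 1.31, 1.80 and 1.51 in meibomian placebo pools. Hp stayed far higher in the lacrimal gland under either treatment, and its difference was -2.64 ± 0.25 (adjusted p = 3.28e-06).

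The other 7 changed less. Cck, the peptide hormone cholecystokinin, averaged 1.43 ± 0.18 and 3.09 ± 0.362 in lacrimal testosterone and placebo pools and 9.23 ± 0.629 and 5.73 ± 0.473 in meibomian ones (SD, n = 3), a difference of -1.70. Kdsr, an enzyme of ceramide synthesis, measured 8.13, 7.85 and 7.57 in lacrimal testosterone pools and 9.96, 10.2 and 11.3 in lacrimal placebo pools. In meibomian pools it measured 19.8, 17.4 and 16.6 with testosterone and 11.1, 11.2 and 11.3 with placebo, so the placebo levels of the glands were alike and testosterone moved them apart (difference -1.08 ± 0.14, adjusted p = 8.34e-05). Lgr5, the R-spondin receptor known as a stem cell marker in gut and hair follicle, averaged 1.87 ± 0.135 and 3.38 ± 0.238 in lacrimal testosterone and placebo pools and 2.43 ± 0.279 and 1.54 ± 0.126 in meibomian ones, which reversed the order of the glands. Akr1c18, the mouse enzyme that inactivates progesterone, had a difference of -1.38. The cartilage proteoglycan Epyc, the fat-cell gene Arxes2 and the sugar sulfotransferase Chst1 had differences of -1.61, -1.57 and -1.44.

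**Figure D2:**
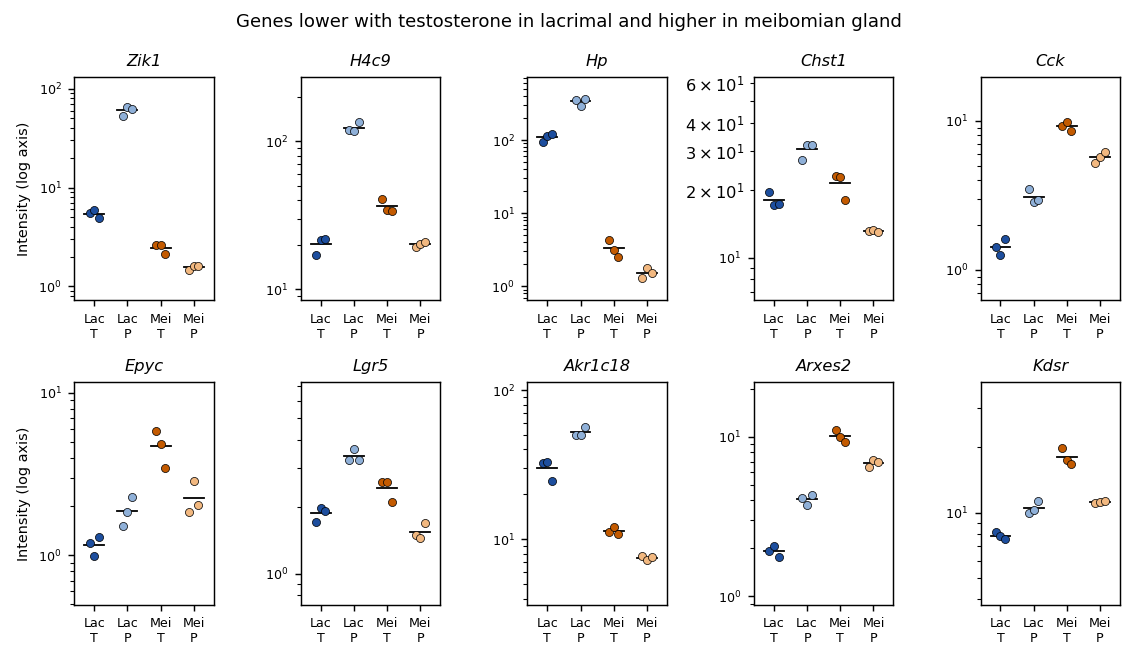
Intensity (log axis) of the 10 genes called in opposite ways in each pool, with lacrimal testosterone (Lac T), lacrimal placebo (Lac P), meibomian testosterone (Mei T) and meibomian placebo (Mei P) from left to right and a bar at each mean (n = 3). In each panel the lacrimal testosterone points lie below the lacrimal placebo points and the meibomian testosterone points above the meibomian placebo points.

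Promoters of 3 genes called in opposite ways and of Nmb, described next, are shown as examples picked by name. They are RefSeq sequences of build GRCm38.p6 and run from 250 bases before to 50 after the annotated start on the gene's own strand. Capitals mark the 6-letter core of the androgen receptor's DNA motif, AGAACA, or its reverse complement TGTTCT, searched on both strands.
Zik1: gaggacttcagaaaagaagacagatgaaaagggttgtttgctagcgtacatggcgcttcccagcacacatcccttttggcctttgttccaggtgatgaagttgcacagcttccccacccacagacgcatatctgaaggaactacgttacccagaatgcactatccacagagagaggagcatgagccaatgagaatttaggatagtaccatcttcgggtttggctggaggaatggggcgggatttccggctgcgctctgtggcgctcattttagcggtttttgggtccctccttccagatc
H4c9: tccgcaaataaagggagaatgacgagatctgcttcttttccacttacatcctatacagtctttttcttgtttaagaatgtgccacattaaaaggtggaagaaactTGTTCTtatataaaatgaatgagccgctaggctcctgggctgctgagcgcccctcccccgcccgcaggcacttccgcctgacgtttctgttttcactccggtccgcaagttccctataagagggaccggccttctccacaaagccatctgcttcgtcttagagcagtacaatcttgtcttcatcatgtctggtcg
Kdsr: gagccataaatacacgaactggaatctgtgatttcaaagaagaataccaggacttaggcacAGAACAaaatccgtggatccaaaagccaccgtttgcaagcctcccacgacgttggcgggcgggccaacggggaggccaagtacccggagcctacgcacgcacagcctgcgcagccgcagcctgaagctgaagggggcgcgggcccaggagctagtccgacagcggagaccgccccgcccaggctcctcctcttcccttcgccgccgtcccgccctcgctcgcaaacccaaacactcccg
Nmb: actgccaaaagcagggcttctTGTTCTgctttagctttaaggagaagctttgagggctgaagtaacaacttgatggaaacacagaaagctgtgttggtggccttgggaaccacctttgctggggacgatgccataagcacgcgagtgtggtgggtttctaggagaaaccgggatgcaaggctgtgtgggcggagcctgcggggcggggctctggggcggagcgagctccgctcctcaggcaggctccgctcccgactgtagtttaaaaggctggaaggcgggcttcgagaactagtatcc
Zik1 is at chr7:10495332-10495631, H4c9 at chr13:22041313-22041612, Kdsr at chr1:106759693-106759992 and Nmb at chr7:80905013-80905312, all on the minus strand. The motif begins 145 bases before the start in H4c9, 189 before it in Kdsr and 229 before it in Nmb, and these letters do not occur in the Zik1 window. The motif is in 19.0% of the 32851 promoters listed and in 13.0% of 3960 tested genes without a call. It is in 11.1% of 451 genes with a positive difference and in 13.0% of 654 with a negative one. Of the 8 opposite-way genes found there 2 have it, and both, H4c9 and Kdsr, are among those printed. The share of printed sequences with the motif therefore says nothing about the called genes. A match of 6 letters describes the sequence and does not show a binding site.

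The meibomian gland alone was called for 27 of the differing probes, 22 with a negative difference. That count was 0 without meibomian testosterone pool B, 2 to 4 without testosterone pool A or any 1 placebo pool, 139 without testosterone pool C and 627 with array weights. Nmb encodes neuromedin B, a bombesin-like signalling peptide. It measured 15.2, 15.4 and 9.28 in meibomian testosterone pools, against 4.00, 4.13 and 4.32 in meibomian placebo pools, while the lacrimal gland had 0.945, 0.686 and 0.586 with testosterone and 0.633, 0.939 and 0.706 with placebo. The meibomian pools were apart and the lacrimal pools overlapped, with a difference of -1.64 ± 0.28 (adjusted p = 0.000819). The transfer protein for vitamin E, Ttpa, was dim on all lacrimal arrays and measured 5.42, 5.61 and 4.07 in meibomian testosterone pools, against 1.55, 1.60 and 1.86 in placebo pools. Its difference of -1.44 therefore rests on the meibomian rise. Sprr2a1, a small proline-rich protein of the cornified envelope, went the other way in the meibomian gland, at 6.34, 6.51 and 7.33 with testosterone and 40.04, 18.9 and 21.0 with placebo, without overlap. It measured under 1 in all lacrimal pools, and the difference was 1.68 ± 0.37 (adjusted p = 0.0046). The fatty acid ligase Acsm3, the ATP-hydrolysing ectoenzyme Entpd1, the histone H3 gene H3c1, the membrane insertion factor Emc2 and the calcium-binding Cpne6 rose in the meibomian gland with differences of -1.17 to -0.99, of which Emc2 lost the call with all 18 arrays (adjusted p = 0.146). The zinc finger gene Zfp950 and the calcium-binding Pef1 fell there, with differences of 1.27 and 1.16, and Pef1 lacks a value in meibomian placebo pool C. With the missing code counted as 0, the difference of Pef1 was -1.11 and not called (adjusted p = 0.721).

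Genes called the same way in both glands numbered 18, of which 14 rose and 4 fell. Their number was 1 to 3 without meibomian testosterone pool A or B or any 1 meibomian placebo pool, 83 without testosterone pool C and 547 with array weights. The 28 probes called in both glands made up 1.16% of the lacrimal calls and 42.4% of the meibomian calls, against 0.921% and 33.7% of all tested probes that had a meibomian or a lacrimal call. Fkbp5 is a co-chaperone of steroid receptors and a well-known androgen target. It measured 20.8, 16.9 and 24.6 in lacrimal testosterone pools and 1.30, 1.62 and 1.35 in lacrimal placebo pools. In the meibomian gland it measured 1.03, 1.18 and 1.30 with testosterone, against 0.651, 0.465 and 0.426 with placebo. Fkbp5 rose in both, by 3.70 in the lacrimal gland and 0.98 in the meibomian gland, and the difference of 2.72 ± 0.23 was called (adjusted p = 1.26e-06). Crisp2, a cysteine-rich protein of sperm, rose by 2.61 and 0.69, also with a called difference (1.92). Cyp2b10, a drug-metabolising P450, showed no called difference: it measured 18.9, 19.6 and 20.8 in lacrimal testosterone pools against 5.66, 9.11 and 9.24 in placebo pools, and 4.42, 4.13 and 4.09 in meibomian testosterone pools against 2.04, 1.81 and 1.64. The rises were 1.32 and 1.13, and the difference was 0.18 ± 0.23 (adjusted p = 0.616). The differences of Dpf1 (0.34), the decarboxylase Echdc1 (-0.09), the hormone resistin, Retn (0.43), and the mitochondrial enzyme Gpd2 (-0.03) did not pass either, the first pair rising and Retn and Gpd2 falling in both glands. The calcitonin receptor Calcr, the sulfotransferase Sult1a1 and the relaxin-family gene Insl6 rose in both and had positive differences of 0.77, 0.89 and 1.08, of which Calcr and Sult1a1 lost the call with all 18 arrays in the fit. Calcr lost it under 14 alternatives, 9 of them single arrays left out (highest adjusted p = 0.118), and Insl6 with a 4-fold larger offset (adjusted p = 0.0899).

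**Figure D3:**
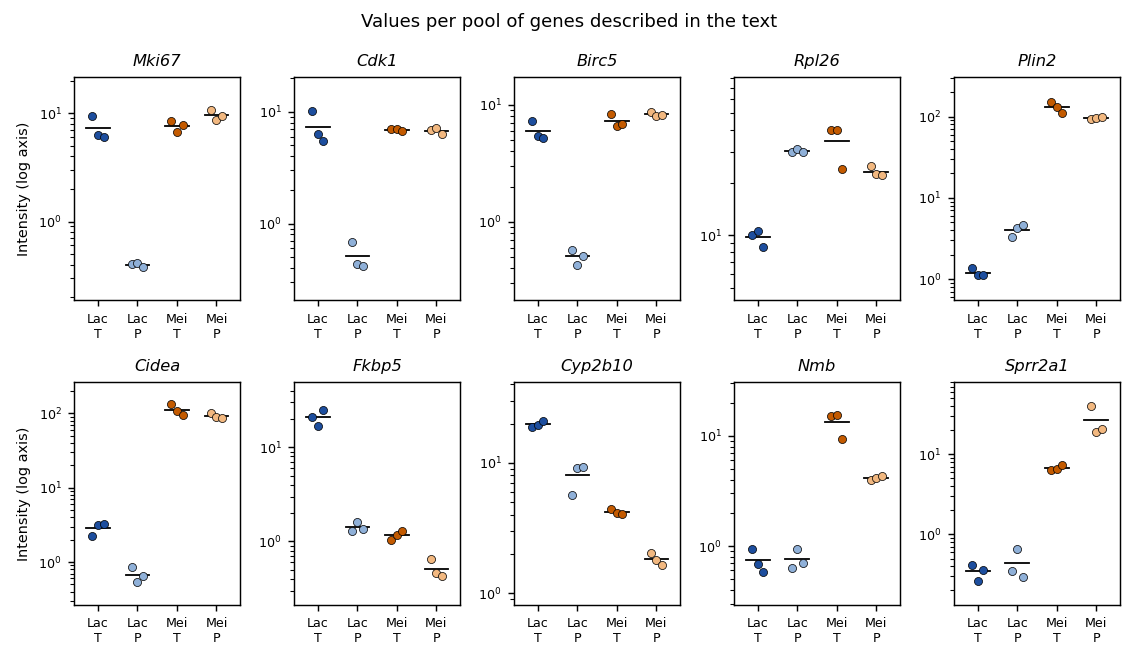
Intensity (log axis) of 10 genes in each pool, with lacrimal testosterone, lacrimal placebo, meibomian testosterone and meibomian placebo pools from left to right and a bar at each mean (n = 3). Mki67, Cdk1 and Birc5 are low only in lacrimal placebo pools, Nmb and Sprr2a1 separate by treatment in the meibomian gland and overlap in the lacrimal gland, and Fkbp5 and Cyp2b10 are higher with testosterone in both glands.

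Genes of DNA replication and mitosis gave the most one-sided list with a positive difference. Of 62 tested probes 41 had a positive called difference and 0 a negative one, with a median difference of 1.19, against -0.11 over all tested probes. In the lacrimal gland 48 rose and 0 fell, and in the meibomian gland 0 passed either way. Mki67, the proliferation marker Ki-67, measured 9.54, 6.37 and 6.07 in lacrimal testosterone pools, against 0.406, 0.418 and 0.377 in lacrimal placebo pools. Its meibomian values were 8.46, 6.79 and 7.78 with testosterone, against 10.8, 8.69 and 9.36 with placebo, lower with testosterone without overlap but not called. The lacrimal testosterone values thus lay within or near the meibomian range and the lacrimal placebo values far below it (difference 4.00 ± 0.23, adjusted p = 2.14e-08). Cdk1, the mitotic kinase, averaged 7.35 ± 2.52 and 0.511 ± 0.146 in lacrimal testosterone and placebo pools and 6.92 ± 0.20 and 6.80 ± 0.398 in meibomian ones. Birc5, the chromosomal passenger protein survivin, averaged 5.98 ± 1.16 and 0.506 ± 0.0732 in lacrimal pools and 7.26 ± 0.947 and 8.31 ± 0.298 in meibomian ones.

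The replication licensing helicase genes Mcm3, Mcm4, Mcm5, Mcm6 and Mcm7 had differences of 1.31 to 2.08, the nucleotide synthesis genes Tk1, Tyms and Rrm2 of 2.32 to 2.85, and the cyclins Ccna2 and Ccnb2 of 1.91 and 2.60. Over the whole list the median gap between the glands, lacrimal minus meibomian, was 0.14 with testosterone and -0.99 with placebo, and 45 of 62 probes (72.6%) were closer between glands with testosterone, against 47.7% of all tested probes. Not all members took part: Foxm1 (-0.44), Aurkb (-0.10) and Cdk2 (-0.01) had differences that did not pass. The list had 36 to 43 positive and 0 negative differences without any 1 array and 41 to 43 positive ones under the other scalings.

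**Figure D4:**
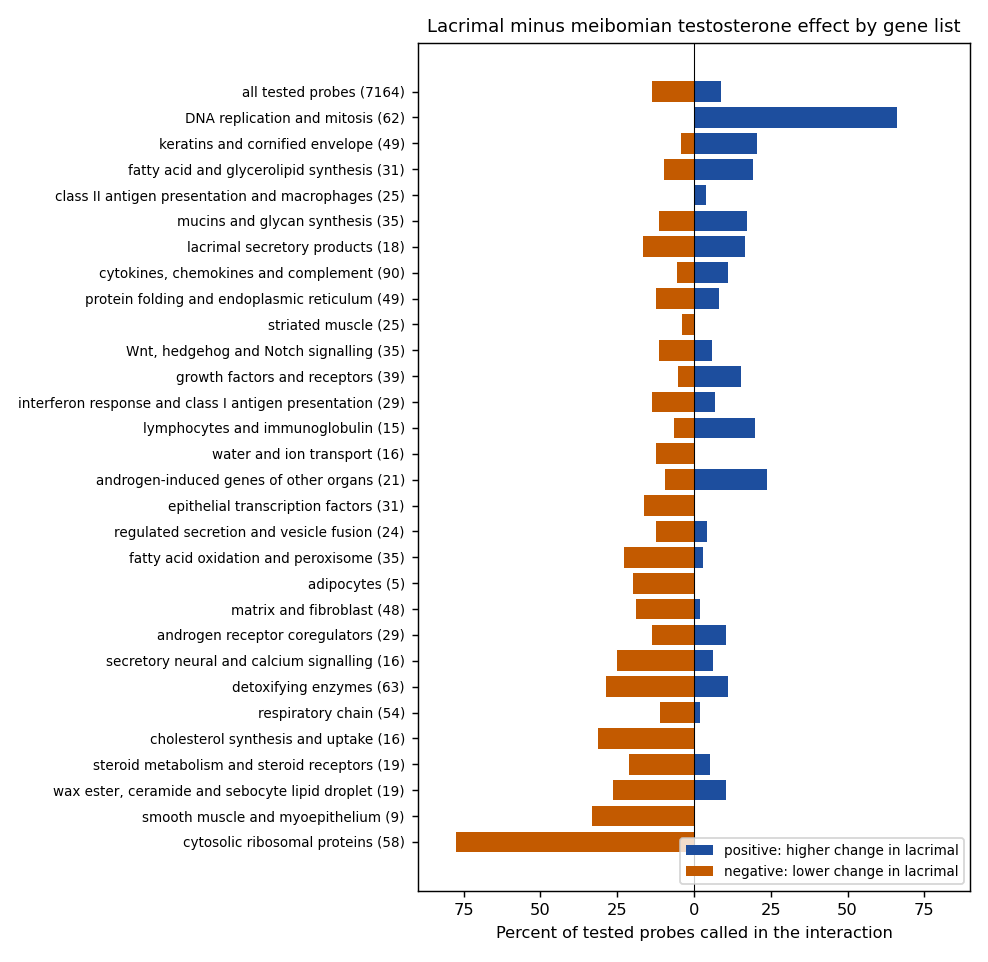
Percent of each list's tested probes (number in brackets) whose difference was called positive (right) or negative (left). DNA replication and mitosis lies furthest right with 66.1% and cytosolic ribosomal proteins furthest left with 77.6%, against 22.6% in both directions together over all tested probes.

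Ribosomal protein genes ran the other way, but their count depended on the scaling of the arrays. Of 58 probes 0 had a positive and 45 a negative called difference, with a median of -0.94. In the lacrimal gland 2 rose and 42 fell, with a median change of -0.58, and in the meibomian gland 1 rose and 0 fell, with a median of 0.34. Rpl26 measured 10.1, 10.6 and 8.54 in lacrimal testosterone pools and 30.2, 31.4 and 30.1 in lacrimal placebo pools, against 40.2, 39.9 and 24.1 in meibomian testosterone pools and 24.9, 22.4 and 22.1 in meibomian placebo pools. Its meibomian groups overlapped, and its difference was -2.19 ± 0.24 (adjusted p = 1.40e-05). With quantile normalization over the 12 arrays the list had 3 positive and 13 negative differences and a median of -0.24, and with quantile normalization within each gland 3 and 23 and a median of -0.34. Most of these probes are bright, and bright probes as a whole shifted. In the brightest of 10 bins of probes the median change was -0.19 in the lacrimal and 0.27 in the meibomian gland, the median difference was -0.42, and 236 of 717 differences were negative against 39 positive. The part of this shift in the ribosomal result was not tested beyond these scalings. Genes of the respiratory chain had 1 positive and 6 negative differences of 54 (1.85% and 11.1%). These shares lay below the 8.78% and 13.8% of all tested probes. The median of this list was -0.36, and -0.11 with quantile normalization, where 2 were positive and 9 negative. The negative count was 19 without meibomian testosterone pool C, 15 without lacrimal testosterone pool A and 4 without any of 5 other pools.

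**Figure D5:**
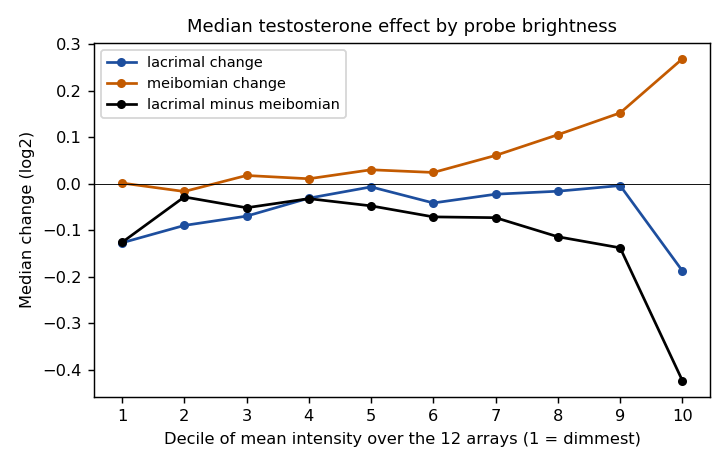
Median testosterone minus placebo change (log2) of probes in 10 bins of mean intensity over the 12 arrays, for the lacrimal gland, the meibomian gland and their difference. The lines stay within 0.15 of 0 over most bins, and in the brightest bin they reach -0.19, 0.27 and -0.42.

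Lipid genes had differences of both signs, and no test compared the pathways. Over all tested probes 8.78% of differences were positive and 13.8% negative, the shares to hold beside each list from here on. In fatty acid and glycerolipid synthesis 6 of 31 differences were positive (19.4%) and 3 negative (9.68%). The median was 0.19, and 0.04 without lacrimal testosterone pool A. Changes lay above 0 for 23 of 31 probes in the lacrimal and 24 of 31 in the meibomian gland. Over all tested probes these numbers were 3184 and 4294 of 7164. The median meibomian change of the list was 0.25, and 0.12 with quantile normalization over the 12 arrays. In the lacrimal gland 12 rose and 3 fell, and in the meibomian gland 0 passed. Acsbg1, an acyl-CoA synthetase, measured 18.2, 12.8 and 18.2 in lacrimal testosterone pools and 1.31, 0.481 and 0.324 in lacrimal placebo pools. In meibomian pools it measured 19.4, 18.3 and 19.3 with testosterone and 20.2, 20.9 and 20.8 with placebo, so that lacrimal testosterone pools came near the meibomian level (difference 4.50 ± 0.40, adjusted p = 2.01e-06). Scd1, the desaturase that makes monounsaturated fat, averaged 8.44 ± 1.66 and 3.15 ± 0.601 in lacrimal testosterone and placebo pools and 33.8 ± 1.04 and 27.7 ± 0.718 in meibomian ones, a difference of 1.09. Dgat2, Acss2, Acly and Thrsp, of triglyceride synthesis, acetate activation, acetyl-CoA supply and lipogenic control, also had positive differences, of 0.64 to 2.15. The acyl-CoA synthetases Acsl3 and Acsl4 and the carboxylase Pcx had negative ones. Fasn, the fatty acid synthase, measured 20.2, 2.97 and 13.2 in lacrimal testosterone pools and 4.03, 2.71 and 2.93 in lacrimal placebo pools, with 17.6, 23.3 and 25.1 in meibomian testosterone pools and 18.9, 21.7 and 22.3 in meibomian placebo pools. Its difference of 1.45 ± 0.66 did not pass (adjusted p = 0.138), passed without lacrimal testosterone pool B, where it was 2.24, and was 0.45 and not called on a second Fasn probe.

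In the list of wax ester, ceramide and lipid droplet genes of sebocytes 2 of 19 differences were positive (10.5%) and 5 negative (26.3%), with a median of -0.53. Meibomian changes lay above 0 for 17 of 19 probes, against 4294 of all 7164, although 1 passed. Lacrimal changes lay above 0 for 7 of 19, against 3184 of all 7164. The median meibomian change of the list was 0.27, and 0.12 with quantile normalization over the 12 arrays or within each gland. Bright probes as a whole rose in the meibomian gland, with a median of 0.27 in the brightest of 10 bins. The part of this shift in the list was not tested beyond these scalings. Plin2, the coat protein of lipid droplets, measured 1.35, 1.11 and 1.12 in lacrimal testosterone pools and 3.31, 4.24 and 4.59 in lacrimal placebo pools. It measured 153, 132 and 110 in meibomian testosterone pools and 92.9, 96.8 and 97.6 in meibomian placebo pools, close to the top of those arrays. That top was itself higher with testosterone, with array maxima of 148 to 219 against 135 to 143 with placebo. Its part in the meibomian rise of Plin2 was not tested. The pools did not overlap in either gland, and the difference was -2.06 ± 0.20 (adjusted p = 5.24e-06). The droplet fusion gene Cidea and the lipase activator Abhd5 ran the other way. Cidea averaged 2.88 ± 0.581 and 0.672 ± 0.16 in lacrimal testosterone and placebo pools and 112 ± 18.6 and 92.2 ± 7.49 in meibomian ones, a difference of 1.58. Abhd5 averaged 30.9 ± 1.71 and 5.17 ± 0.749 in lacrimal pools and 14.3 ± 1.70 and 12.3 ± 0.772 in meibomian ones, so that the lacrimal level passed the meibomian one with testosterone (difference 2.35). Elovl3, the sebaceous elongase, had a difference of -0.22 that did not pass and turned positive under quantile normalization (0.33 over the 12 arrays and 0.24 within each gland). It averaged 143 and 102 in meibomian testosterone and placebo pools, also toward the top of those arrays, and 0.552 and 0.432 in lacrimal ones. Such levels limit what change either gland could show.

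Of 16 cholesterol genes 0 had a positive and 5 a negative difference (31.2%, median -0.41). The squalene synthase Fdft1 and the lysosomal transporter Npc2 fell in the lacrimal gland without a meibomian call, with differences of -1.09 and -0.79. Hsd17b7, of cholesterol synthesis, was dim on all lacrimal arrays and had a difference of -1.62. In fatty acid oxidation and peroxisomes 1 of 35 differences was positive (2.86%) and 8 negative (22.9%). The thioesterase Acot1, at 1.19 ± 0.117 and 5.58 ± 0.567 in lacrimal testosterone and placebo pools and 46.5 ± 5.68 and 33.6 ± 1.53 in meibomian ones, had a difference of -2.54, and the carnitine acyltransferase Crot of -1.42. Meibomian changes lay above 0 for 31 of these 35 probes, against 4294 of all 7164, and 0 passed. Their median was 0.20, and 0.06 with quantile normalization over the 12 arrays. The negative count of this list was 5 without lacrimal placebo pool B or meibomian testosterone pool A, and that of the sebocyte list was 8 without meibomian testosterone pool C.

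Keratins and cornified envelope genes had 10 positive and 2 negative differences of 49 and a median of 0.33. The share called, 24.5%, was near the 22.6% of all tested probes, and without single arrays 8 to 14 were positive and 1 to 3 negative. This arose with changes below 0 in both glands for most members: 30 of 49 in the lacrimal and 38 of 49 in the meibomian gland, against 3980 and 2870 of all 7164. Of the 49 probes 15 were dim on all lacrimal arrays, where a fall could show little. The lacrimal change was the larger one for 7 of the 12 called, against 1435 of 1617 over all called probes. In the meibomian gland 1 fell and 0 rose, and in the lacrimal gland 7 rose and 4 fell. Krt31, a hair keratin, measured 52.1, 67.8 and 64.0 in lacrimal testosterone pools and 19.2, 17.9 and 18.3 in lacrimal placebo pools, while meibomian pools overlapped at 22.2, 29.0 and 20.9 with testosterone and 22.1, 18.4 and 22.6 with placebo. Its difference was 1.53 ± 0.20 (adjusted p = 8.61e-05). Krt8, a keratin of simple epithelia, had a difference of 1.48. Among epithelial transcription factors 0 of 31 differences were positive and 5 negative. The basal-cell factor Trp63 averaged 0.273 ± 0.124 and 0.966 ± 0.146 in lacrimal testosterone and placebo pools and 12.3 ± 0.417 and 14.4 ± 0.901 in meibomian ones, a difference of -1.15. The duct-cell factor Ascl3 had one of -1.13.

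Detoxifying enzymes had 7 positive and 18 negative differences of 63 (11.1% and 28.6%), with a median of -0.30. In the lacrimal gland 12 rose and 16 fell, and in the meibomian gland 2 rose and 1 fell. Cyp3a13, a P450, measured 13.6, 13.6 and 10.1 in lacrimal testosterone pools and 0.528, 0.978 and 0.787 in lacrimal placebo pools, against 1.66, 1.37 and 1.25 in meibomian testosterone pools and 1.28, 1.23 and 1.20 in meibomian placebo pools (difference 3.59 ± 0.25, adjusted p = 2.03e-07). The flavin monooxygenase Fmo5 had a difference of 2.89. Negative differences covered alcohol dehydrogenases (Adh1 and Adh7), carboxylesterases (Ces1d and Ces1e), P450s (Cyp39a1 and Cyp2f2) and 8 glutathione transferase genes with Gst names or Mgst1, from -4.19 to -0.59. Counts under the other scalings were 7 or 8 positive and 16 or 17 negative.

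Glycan synthesis genes held large differences of both signs. Of 35 probes 6 were positive and 4 negative (median 0.12). Chst2, a sulfotransferase of glycan chains, measured 355, 286 and 222 in lacrimal testosterone pools and 11.2, 12.7 and 7.67 in lacrimal placebo pools. In meibomian pools it measured 0.697, 0.879 and 0.987 with testosterone and 0.656, 0.528 and 0.625 with placebo. The meibomian groups were also apart, yet at levels near the array median, and the difference was 4.35 ± 0.28 (adjusted p = 7.44e-08). The core fucosyltransferase Fut8, the galactosyltransferase B4galt6 and the sialyltransferases St3gal5 and St6galnac2 had differences of 2.95 to 3.45, and B4galt1 and Chst1 were the lowest.

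Tear proteins did not share 1 direction. Of 18 lacrimal secretory products 3 differences were positive and 3 negative, and in the lacrimal gland 4 rose and 6 fell. The differences were 1 to 4 positive and 2 to 4 negative without single arrays, with 1 positive without lacrimal testosterone pool C, meibomian testosterone pool A or any 1 meibomian placebo pool, and 4 and 2 with quantile normalization over the 12 arrays. Dmbt1, a mucosal scavenger protein, measured 4.44, 3.47 and 3.27 in lacrimal testosterone pools and 24.0, 15.6 and 20.1 in lacrimal placebo pools, with 1.69, 1.14 and 0.692 in meibomian testosterone pools and 0.972, 1.13 and 0.955 in meibomian placebo pools (difference -2.47 ± 0.33, adjusted p = 9.02e-05). The cobalamin carrier Tcn2 rose in the lacrimal gland, with a difference of 1.14, and the lipocalin Lcn3 had a difference of -1.14. Car6, a secreted carbonic anhydrase, had a difference of -0.66 (adjusted p = 0.0394) that was 0.00 with quantile normalization over the 12 arrays and lost the call under 14 alternatives. Differences of lactoferrin, Ltf (-0.42), lactoperoxidase, Lpo (-0.24), and the antibody receptor Pigr (-1.11, adjusted p = 0.0805) did not pass, and that of Pigr passed without lacrimal testosterone pool C (-1.45). In water and ion transport, 2 of 16 differences were called, both negative and both on probes of the potassium channel Kcnma1 (-1.85 and -0.93).

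Secretory signalling and protein folding had few one-sided members. Of 16 signalling probes 1 was positive (Rgs10) and 4 negative, among them the G protein regulator Rgs2 (-1.48). Of 24 vesicle fusion probes 1 was positive, the vesicle SNARE Vamp2 (1.18), and 3 were negative. In protein folding 4 of 49 differences were positive, such as the lectin chaperone Calr (0.77), and 6 negative, among them the stress factors Atf4 (-1.08) and Xbp1 (-0.82), both of which lost the call with all 18 arrays. The share called in this list was 20.4%, near the 22.6% of all tested probes. The split was 8 positive and 3 negative with quantile normalization over the 12 arrays, and 2 to 4 positive and 3 to 9 negative without single arrays. The negative count was 3 without lacrimal placebo pool B, meibomian testosterone pool A or B or any 1 meibomian placebo pool. The vesicle fusion list had 1 to 3 negative differences without single arrays.

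Immune genes differed singly. Of 90 cytokine, chemokine and complement probes 10 differences were positive and 5 negative (16.7% called, median 0.01), and 3 to 8 were negative without single arrays, the highest without meibomian testosterone pool C. Il3, a haematopoietic cytokine, measured 70.4, 47.8 and 45.9 in lacrimal testosterone pools and 2.35, 4.86 and 3.71 in lacrimal placebo pools, and was dim on all meibomian arrays (difference 3.73 ± 0.31). The chemokine receptor Ccr1 (2.58), the shared cytokine receptor chain Csf2rb (2.49), Cxcr4 (1.44) and the mucosal chemokine Ccl28 (1.20) were also positive, and Ccl4 (-1.99) and Cxcl12 (-1.19) were negative. Pou2af1, a B cell coactivator, measured 7.73, 6.15 and 6.95 in lacrimal testosterone pools and 1.14, 0.677 and 0.958 in lacrimal placebo pools, and was dim in the meibomian gland (difference 2.69). B2m, the light chain of class I antigen-presenting molecules, measured 378, 314 and 261 in lacrimal testosterone pools, above 59.6, 58.0 and 75.8 in lacrimal placebo pools. It measured 186, 143 and 120 in meibomian testosterone pools and 120, 116 and 130 in meibomian placebo pools, near the top of those arrays (difference 2.02 ± 0.26, adjusted p = 5.55e-05). In its list of interferon and class I genes 2 of 29 differences were positive, B2m and Irf1, and 4 negative, with Ifit3 (-0.91) and Psme1 (-0.82). The negative count was 2 without meibomian placebo pool B or C or testosterone pool A or C, and Ifit3 lost its call under 9 alternatives, 6 of them single arrays left out (highest adjusted p = 0.124). Class II and macrophage genes had 1 called difference of 25, that of the integrin Itgax (1.39). Summed over 6 probes, T and B cell markers ran from 89.3 to 97.1 in lacrimal testosterone pools and 62.0 to 72.7 in lacrimal placebo pools, against 6.01 to 6.82 and 5.37 to 6.01 in meibomian testosterone and placebo pools, most of it from Jchain and Cd79a, while Cd3e, Cd3g and Ms4a1 were below 0.5 on average in each group. The T cell marker Cd8a ran against the sum in the lacrimal gland, with means of 0.268 in testosterone pools and 0.63 in placebo pools, and was not among the tested probes. The part of these cells in the immune results was not tested.

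Genes that other organs are known to induce with androgen had 5 positive and 2 negative differences of 21 (median -0.06), with 3 to 5 and 1 to 2 without single arrays. Besides Fkbp5, Cyp4a12a and Adh1 these included Odc1, the polyamine enzyme, which averaged 7.95 ± 0.477 and 4.68 ± 0.287 in lacrimal testosterone and placebo pools and 2.09 ± 0.229 and 2.15 ± 0.096 in meibomian ones (difference 0.79). Sgk1, a steroid-responsive kinase, lay lower with testosterone in both glands without overlap, fell in the lacrimal gland (-0.87), and its difference of -0.42 did not pass. In steroid metabolism 1 of 19 differences was positive and 4 negative (median -0.48). Hsd11b1, which regenerates active glucocorticoid, measured 1.95, 1.97 and 1.42 in meibomian testosterone pools and 0.973, 0.626 and 0.966 in meibomian placebo pools, with a difference of -1.36 and no call within either gland. The negative count of this list was 8 without lacrimal testosterone pool A and 7 without meibomian testosterone pool C. Of 29 probes of androgen receptor coregulators 3 were positive, with Ddc and the SUMO ligase Pias1 (1.62), and 4 negative, with the pioneer factor Foxa2 (-1.39).

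Growth factor genes gave 6 positive and 2 negative differences of 39, a share of 20.5% against 22.6% of all tested probes, with 5 to 6 and 1 to 4 without single arrays. Mdk, the heparin-binding growth factor midkine, measured 120, 90.8 and 97.6 in lacrimal testosterone pools and 4.33, 5.19 and 1.24 in lacrimal placebo pools. In the meibomian gland it measured 15.4, 13.3 and 15.0 with testosterone and 6.86, 9.33 and 8.65 with placebo, also without overlap, though the meibomian change of 0.81 did not pass (adjusted p = 0.25). The difference was 4.16 ± 0.50 (adjusted p = 3.35e-05). The bone morphogenetic protein Bmp6 (3.78) and the activin binder Fst (3.23) were positive, and the stem cell factor Kitl (-1.23) was negative. In Wnt, hedgehog and Notch signalling, Ptch1 and Wnt1 (1.13) were positive and 4 of 35 probes negative, with Notch1 (-1.05). Wnt1 and Notch1 lost the call with all 18 arrays, and without single arrays the list had 2 to 4 positive and 1 to 5 negative differences.

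Stromal genes were called about as often as other genes. Of 48 matrix and fibroblast probes 1 was positive (2.08%) and 9 negative (18.8%), together 20.8% against 22.6% of all tested probes (median -0.21), and in the lacrimal gland 3 rose and 14 fell, against 0 calls in the meibomian gland. The matrix metalloproteinase Mmp3 averaged 2.76 ± 0.28 and 5.52 ± 0.395 in lacrimal testosterone and placebo pools and 15.0 ± 4.24 and 9.60 ± 0.717 in meibomian ones (difference -1.56), and the proteoglycan Ogn had a difference of -1.31. Of 9 smooth muscle and myoepithelial probes 0 were positive and 3 negative, namely Cnn1 (-1.34), Myh11 (-1.16) and Acta2 (-0.69), all contractile genes that fell in the lacrimal gland. Acta2 lost its call under 17 alternatives, 8 of them single arrays left out (highest adjusted p = 0.0968), and the negative count was 2 to 5 without single arrays, with 5 without lacrimal testosterone pool A. Striated muscle had 1 called difference of 25, Actc1 (-0.57), which lost its call in 19 alternatives. The matrix count was 5 without meibomian placebo pool A or B or testosterone pool B, and 6 without lacrimal placebo pool B or testosterone pool B. Summed fibroblast markers were 19.8 to 23.6 in lacrimal testosterone pools and 27.4 to 37.2 in lacrimal placebo pools, against 83.0 to 151 and 94.0 to 101 in meibomian ones, and their part in the stromal result was not tested.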

How the data were processed

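RNA was measured on 1-colour arrays. The authors deposited 1 table of probe intensity on a linear scale. The array type, the scanner and the scaling are not given in the sources used here. Array medians lay between 0.929 and 0.952, and that scaling was left as it was. The value -1 (41 to 118 probes per array) was read as missing, other values below 0 were set to 0, and log2(value + 0.174) was taken, with the 10th percentile of the positive values as offset. The offset makes fold changes of dim probes too small. A probe entered the tests with at least 2 values per group and a value over the 40th percentile of the array on 3 or more of the 12 arrays. This kept 7164 of 10500 probes, with 3191 dropped as dim and 145 for lack of values. A probe is called dim in a gland if it did not exceed that percentile on any of its 6 arrays. GEO's platform annotation, which can be old, gave 1 symbol for 6318 tested probes (6238 genes), and 846 are unnamed. It gave no coordinates.

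limma 3.58.1 under R 4.3.3 fitted the means of the 4 groups to the 12 arrays, which leaves 8 residual degrees of freedom, and moderated the variances with eBayes (trend on). Adjusted p-values are Benjamini-Hochberg values over the 7164 probes in each contrast, with a threshold of 0.05, and SE is that of the same fit. Every adjusted p in the text is from this fit unless another setting is named. p-values measure the spread between pools, and the number of arrays limits the precision. On simulated data for 7044 probes the interaction fit recovered 11.9% of differences of 0.5, 43.3% of 1 and 93.9% of 2, and 6.60% of its calls were false. These differences were planted in the lacrimal testosterone group of 67, 67 and 66 probes, and no other probe had a treatment effect. In the real data 22.6% of probes were called, so the simulated rates need not hold for the reported fit.

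The members, gene lists and rules were chosen with earlier results of these data known. Named by rule were the 12 largest positive and 12 largest negative called differences with pools apart in at least 1 gland, up to 10 genes each called in opposite ways, in the meibomian gland only or the same way in both, up to 3 called members of each list, and 12 genes always given. Of several probes the one with the highest mean was taken. Other list members named in the text were chosen after their values were seen. Alternatives were other offsets, filters, scalings, variance models, thresholds and fits, treatment of the missing code, bright probes, replicate blocks and each array left out. The brightest probes left out, the lists under each scaling and without each array, and the sorting of calls under each alternative were added after the data were seen. Pools of 1 letter may share mice across glands, which the labels do not settle. Their residual correlations, 0.01 to 0.14 across glands (all 6 above 0) and -0.12 to 0.06 across treatments (6 pairs), were not all over 0.1, so letters were not used as pairs in the reported fit. Values were summarised with Python 3.11.15 and pandas 2.3.3 and drawn with matplotlib 3.10.9.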

Additional observations from a re-analysis of the deposited data

Results flagged for a closer look

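The testosterone effect differed between the lacrimal and the meibomian gland for 1617 of the 7164 probes, by the limma test of the difference itself (22.6%). The 10 genes called in opposite ways are given here as the lacrimal change minus the meibomian change in log2, each past the same test and called within both glands. The differences were -4.028 for Zik1, -3.464 for H4c9, -2.644 for Hp, -1.696 for Cck, -1.607 for Epyc, -1.568 for Arxes2, -1.437 for Chst1, -1.4 for Lgr5, -1.383 for Akr1c18 and -1.081 for Kdsr. All 10 are lower with testosterone in the lacrimal gland and higher in the meibomian gland. Their pools did not overlap between treatments in either gland, on the same values that gave the calls. The test for a single far-off sample needs at least 4 samples and was not applied to groups of 3.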

How the results depend on the processing

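The 1617 differences became 898 at an adjusted p of 0.01, 764 with a size of at least 1 and 2464 with array weights, and 1206 to 1948 without 1 array. The 2417 lacrimal calls became 1564 at 0.01 and 673 with a size of at least 1 (2048 to 2662 without 1 array). They were 1763 with each gland fitted alone and 1749 with 1 weight per gland. The 66 meibomian calls became 2 at 0.01, 12 with a size of at least 1, 705 with 1 weight per gland, 2924 with array weights, 240 with each gland fitted alone and 27 with quantile normalization over the 12 arrays, and 1 to 357 without 1 array. With the letter as a replicate block they were 34, and the differences 1554. The differences were 1531 and 1734 with a fixed and a random replicate block by pool. It is not given whether 1 letter marks the same animals in both glands, and letters were not treated as pairs. Other alternatives stayed within 1.5 times the reported counts, such as 1298 differences (575 positive, 723 negative) without the brightest probes. Of 114 called named genes 99 kept the call under each alternative and 15 lost it under at least 1, 12 of them with all 18 arrays. The difference of Pef1 was -1.114 with the missing code counted as 0, since 1 meibomian placebo value is missing, and that of Car6 was 0.004941 with quantile normalization over the 12 arrays; the cause was not tested. On a linear scale 1601 of the 1617 kept their sign. The meibomian arrays end at a lower maximum, and 55 of 88 probes near it had a called difference.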

Other observations

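The 187 probes with a called difference but no call within either gland were mostly negative, 160 against 27. Among them Stx2, a syntaxin of vesicle fusion, averaged 0.227 ± 0.115 and 0.365 ± 0.122 in lacrimal testosterone and placebo pools and 2.05 ± 0.0856 and 1.46 ± 0.204 in meibomian ones (SD, n = 3), and was dim on all lacrimal arrays. Its difference of -0.90 ± 0.30 passed narrowly (adjusted p = 0.0435 in limma). It lost the call under 16 alternatives, 10 of them single arrays left out (highest adjusted p = 0.112).

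The glands were closer to each other with testosterone for 747 of the 1617 called probes (46.2%), against 47.7% of all tested probes. On the deposited scaling the list of sebocyte lipid genes lay further apart with testosterone. Its median gap, lacrimal minus meibomian, was -3.65 with testosterone and -3.00 with placebo, and 4 of 19 probes were closer. The gap was not taken under other scalings. The list's median difference of -0.53 was -0.34 and -0.31 with quantile normalization over the 12 arrays and within each gland. Ribosomal protein genes had a median gap of -0.27 with testosterone and 0.60 with placebo, on the deposited scaling.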
